A study of Mus musculus with 13 samples.

Results

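Among 184 progenitor barcodes that held at least 1000 CPM of the starting population, 77 stayed under 10 CPM in every leukaemia library. CPM is reads per 1000000 barcode reads of a library, so 10000 CPM is 1% of it. The 77 barcodes, called lost barcodes here, were chosen by exactly these values, out of 2505 barcodes in the table. The other 107 abundant barcodes reached 10 CPM in at least 1 leukaemia library and are called kept. Over all 2394 barcodes present at baseline, 76.3% stayed under 10 CPM in every leukaemia library. The choice of the 77 used the same values, so nothing is read from that share.

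MLL-AF9 is a fusion oncogene of acute myeloid leukaemia that turns haematopoietic progenitors into self-renewing leukaemia cells. A SPLINTR barcode is a short DNA tag that a viral vector writes into the genome of a progenitor, and every daughter cell inherits it. Counting the tags before transplantation and at disease shows which founder clones contribute to the leukaemia. A clone can be large in culture and still leave few or no descendants in an animal. Why a clone does so was not tested here.

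The starting cells were c-Kit positive haematopoietic progenitors grown with IL-3, IL-6 and SCF and transduced with the barcode library, and 1 library sampled them (baseline). The MLL-AF9 leukaemia cells were transplanted into 3 Ptprca mice (mice 1 to 3), which are congenic with C57BL/6 and have an intact immune system, and 3 NSG mice (mice 4 to 6), which have no T, B or natural killer cells. Viable cells were sorted from bone marrow and spleen of each mouse at disease, giving 12 leukaemia libraries. Neither the number of cells transplanted nor the time to disease is given in the sources used here. Barcodes are named by their number in the authors' list. Whether some founder cells carried more than 1 barcode was not tested, so a clone here means the cells with 1 barcode.

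Each deposited value was the mean CPM of 2 technical repeats of 1 lysate, and the reads of each repeat could be recovered from the printed digits. Baseline held 4983966 reads, and the leukaemia libraries held 2484519 to 5252942. The floor of a library, set at 3 reads of whichever repeat was less deep, lay between 0.575 and 8.80 CPM. It was highest in Ptprca mouse 3 bone marrow, where that repeat had 170453 reads. Amplified reads carry no molecular identifiers here, so floors and intervals describe counting error alone.

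Lost barcodes were large clones at baseline. Together they held 18.3% of the baseline library, against 52.1% for the kept barcodes. Their baseline levels ran from 1002 to 15745 CPM, with a median of 1517 CPM. Kept barcodes ran from 1016 to 52899 CPM, with a median of 2442 CPM. The ranges of the groups overlapped, but lost barcodes were mostly smaller. Their upper quartile, 2215 CPM, lay below the kept median. The kept group alone contained the 4 barcodes above 2%.

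GFP_Barcode_22402 was the largest lost clone and the 5th largest barcode of the baseline library, at 1.57% (95% Wilson interval 1.56% to 1.59%). It was at 0 in 11 leukaemia libraries and at 0.544 CPM, which is 2 reads, in NSG mouse 6 spleen. GFP_Barcode_5485 was the 7th largest, at 1.39% (1.38% to 1.40%). It too was at 0 in 11 libraries and at 2 reads in NSG mouse 6 spleen. Both clones thus held more than 1% of the baseline library and at most 2 reads of any leukaemia library.

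The next 6 lost barcodes by size lay between 5589 and 8332 CPM at baseline. GFP_Barcode_16520 held 8332 CPM and left 1 read in Ptprca mouse 2 bone marrow and 1 read in NSG mouse 6 spleen. GFP_Barcode_106027, at 5589 CPM, left 1 read in each of the same 2 libraries. GFP_Barcode_41796, at 5685 CPM, left 1 read in Ptprca mouse 3 bone marrow and 1 in NSG mouse 6 spleen. These 3 clones were at 0 in the other 10 libraries.

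GFP_Barcode_23322, at 6531 CPM, and GFP_Barcode_61858, at 3953 CPM, were each seen in NSG mouse 6 spleen alone, at 2 reads. GFP_Barcode_141149 held 5788 CPM at baseline and 2.16 CPM in Ptprca mouse 3 bone marrow, where all 10 reads came from the deeper repeat. GFP_Barcode_120710, at 5629 CPM, and GFP_Barcode_2921, at 3935 CPM, were at 0 in all 12 leukaemia libraries. They complete the 10 largest lost clones, of which none was above the floor of a library where it was seen.

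The rule held every leukaemia value of the lost barcodes under 10 CPM, so their low level follows from the choice. It did not fix how many of these values were 0. Of the 924 values that the 77 barcodes have in 12 libraries, 893 (96.6%) were 0. Of the 107 kept barcodes, 16 to 48 were at 0 in each library. At 0 in every leukaemia library were 52 barcodes, and the other 25 had a trace in at least 1. For these 52, the baseline level was at least 710-fold to at least 3990-fold above the mean floor of the 12 libraries, 1.41 CPM. The median of these bounds was 1023-fold. A CPM is a share of the library, so a clone that kept its cell number while others grew also falls in CPM. Cell numbers were not used here.

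GFP_Barcode_53507 came nearest to persisting. It held 1896 CPM at baseline and reached 6.74 CPM in NSG mouse 4 bone marrow, from 13 and 17 reads in its 2 repeats. In NSG mouse 6 bone marrow it had 2.47 CPM, from 8 and 5 reads, and in Ptprca mouse 2 bone marrow 1.15 CPM, from 5 reads in 1 repeat. It was at 0 in the other 9 libraries, all 6 spleens among them. It was the only lost barcode above the floor of a library and the only one seen in both repeats of a library.

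Most traces were single reads. Of 31 values above 0, the 3 of GFP_Barcode_53507 among them, 22 rested on 1 read, 5 on 2 reads and 4 on more. They were unevenly spread over the animals. NSG mouse 6 spleen gave 21 of them, from 25 reads, and all 25 reads came from the shallower repeat of that library. The other 5 spleens held no read of any lost barcode, and bone marrow libraries held 0 to 3 of them. In NSG mouse 6 spleen, the 21 barcodes with a trace had a median baseline level of 2049 CPM, against 1454 CPM for those without. Among the 20 largest lost barcodes 10 had a trace there, and among the other 57 there were 11. The source of these reads was not tested. Without this library, 78 barcodes would be lost, the 77 among them.

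No abundant barcode peaked between 6.74 and 13.9 CPM, but peaks were thinly spread on both sides of the limit of 10 CPM. The limit therefore does not mark a break between 2 classes of clone. The highest lost values were 6.74 CPM for GFP_Barcode_53507, 2.93 CPM for GFP_Barcode_7148 (1 read in the shallow repeat of Ptprca mouse 3 bone marrow) and 2.16 CPM for GFP_Barcode_141149. Just above the limit, GFP_Barcode_74656 peaked at 13.9 CPM, GFP_Barcode_6104 at 17.3 CPM, GFP_Barcode_95860 at 17.8 CPM, GFP_Barcode_23 at 27.9 CPM and GFP_Barcode_26766 at 51.2 CPM. GFP_Barcode_74656 was itself a large clone, at 1.25% of baseline, and was seen in Ptprca mouse 1 bone marrow alone. Only 10 kept barcodes stayed under 100 CPM in every library, 34 peaked between 100 and 1000 CPM and 63 at 1000 CPM or more.

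Barcodes on both sides of the baseline limit are named here. Those below it were chosen as the nearest that also stayed under 10 CPM in every leukaemia library. Their low values follow from that choice, and 84 of 168 barcodes from 500 to 1000 CPM were lost. GFP_Barcode_112565 (1002 CPM), GFP_Barcode_35044 (1019 CPM) and GFP_Barcode_10185 (1023 CPM) were the smallest lost barcodes. Just below the limit, GFP_Barcode_24726 (988 CPM) and GFP_Barcode_16468 (980 CPM) were at 0 in all leukaemia libraries. GFP_Barcode_71643 (986 CPM) reached 8.25 and 9.16 CPM in the bone marrow and spleen of Ptprca mouse 2.

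The baseline level that the rule used is the mean of 2 repeats, and the repeats are described here without a test. The reads of both repeats could be told uniquely for 75 lost and 95 kept barcodes, the rest having more than 1 solution. Each of these 75 lost barcodes had at least 2714 reads in the deeper and 1968 in the shallower repeat, numbers that follow in the main from the limit of 1000 CPM. The log2 ratio of the repeats ran from -0.21 to 0.47 among them (median 0.08, SD 0.16) and from -0.60 to 0.53 among kept barcodes (median -0.04, SD 0.22). GFP_Barcode_16520, for example, held 8113 CPM in 1 baseline repeat and 8551 CPM in the other. Lost barcodes were thus present at similar levels in both repeats. Because the repeats share 1 lysate and there is 1 baseline library, they do not measure the spread between samplings of the culture.

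The share of barcodes lost was lower at high baseline levels, though it did not fall in every step. From 1000 to 2000 CPM, 55 of 98 barcodes were lost (56.1%, 95% Wilson interval 46.3% to 65.5%). From 2000 to 5000 CPM the count was 14 of 58 (24.1%, 15.0% to 36.5%), and from 5000 to 10000 CPM it was 6 of 14 (42.9%, 21.4% to 67.4%). At 10000 CPM or more, 2 of 14 were lost (14.3%, 4.01% to 39.9%). The band just below the limit, 500 to 1000 CPM, lost 84 of 168 barcodes (50.0%, 42.5% to 57.5%). All these barcodes come from the same baseline library and the same mice, so they are not replicates. The intervals cover counting only, and whether loss differs between bands was not tested.

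Some of the largest kept clones were also near or at 0 in several animals. GFP_Barcode_129, at 4.94% of baseline, was at 0 in 6 leukaemia libraries and reached 10 CPM in 5, with a highest value of 869 CPM in NSG mouse 4 bone marrow. GFP_Barcode_86249, at 2.15%, was at 0 in 4 libraries and peaked at 489 CPM in Ptprca mouse 1 bone marrow. GFP_Barcode_27492 (5.29%) and GFP_Barcode_132107 (4.68%) were seen at 10 CPM or more in all 12 libraries and peaked at 0.478% and 0.556%. Their levels were similar in each library, from 145 and 97.9 CPM in Ptprca mouse 3 spleen to 4782 and 5563 CPM in NSG mouse 6 spleen. Whether these 2 barcodes shared a founder cell was not tested. GFP_Barcode_36463, at 1.53%, was also present in all 12 and peaked at 0.683%. Of the 107 kept barcodes, 62 stayed below their own baseline level in every library, while 45 rose above it in at least 1.

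Of the 5 kept barcodes with the highest mean at disease, 3 had baseline levels from 1031 to 2500 CPM. GFP_Barcode_69276 held 2500 CPM at baseline and at least 7741 CPM in each leukaemia library. GFP_Barcode_22403 held 1536 CPM, near the lost median, and ran from 726 CPM in NSG mouse 4 spleen to 129479 CPM in NSG mouse 6 bone marrow. GFP_Barcode_113284 held 1031 CPM, less than most lost barcodes, and reached 27.7% of Ptprca mouse 1 spleen. In the other libraries it ran from 0 in NSG mouse 5 spleen to 14731 CPM in Ptprca mouse 1 bone marrow. GFP_Barcode_18532 (1.01% at baseline) and GFP_Barcode_44375 (0.982%) completed the 5, with means of 4.26% and 1.74% over the 12 libraries. GFP_Barcode_18532 ran from 2555 CPM in NSG mouse 4 spleen to 183523 CPM in NSG mouse 5 spleen. GFP_Barcode_44375 held at least 16110 CPM in each Ptprca library. In each NSG library it held at most 919 CPM, below its baseline level. Of the lost barcodes, GFP_Barcode_22402 and GFP_Barcode_5485 alone had started larger than GFP_Barcode_18532 and GFP_Barcode_44375.

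Most abundant barcodes were either reached in no mouse or in all. A barcode was counted as reached in a mouse when its bone marrow or spleen held 10 CPM or more. Of the 184 abundant barcodes, 77 were reached in no mouse and 49 in all 6, while 14, 6, 16, 15 and 7 were reached in 1, 2, 3, 4 and 5 mice. The median baseline level was 1517 CPM for barcodes reached in no mouse and 3130 CPM for those reached in all 6. Of the kept barcodes, 82 were reached in mice of both strains, 18 in NSG mice alone and 7 in Ptprca mice alone.

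Each mouse was also held out in turn, which counts again how many mice each barcode reached. Abundant barcodes under 10 CPM in the other 5 mice numbered 78 to 82, and 1 to 5 of them reached 10 CPM in the mouse held out. This was 1.28% (95% Wilson interval 0.227% to 6.91%) for mouse 1, 2.53% for mouse 2, 2.53% for mouse 3, 1.28% for mouse 4, 6.10% (2.63% to 13.5%) for mouse 5 and 3.75% for mouse 6. Among abundant barcodes seen in the other 5 mice, 61.0% to 79.8% reached it. Of the barcodes under 10 CPM in the other 5 mice, the same 77 stayed under it each time. Those that reached it are, over the 6 mice, the 14 barcodes reached in a single mouse. The low shares thus follow from these 2 counts and are no separate evidence of loss. Barcodes are not replicates of a condition, so the 2 shares are a description. The mean share over the 6 mice was 2.91%, and it ran from 2.40% to 4.29% with baseline limits of 500 and 2000 CPM and disease limits of 1 and 100 CPM.

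A whole strain was then held out. Of 95 abundant barcodes under 10 CPM in all Ptprca mice, 18 (18.9%, 95% Wilson interval 12.3% to 28.0%) reached it in at least 1 NSG mouse. Of 84 under 10 CPM in all NSG mice, 7 (8.33%, 4.10% to 16.2%) reached it in at least 1 Ptprca mouse. The remaining 77 in each case are the lost barcodes themselves. Barcodes are not replicates of a host, so the 2 intervals cover counting only and do not compare the strains.

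The 14 barcodes reached in a single mouse lie closest to the lost ones, 5 in Ptprca and 9 in NSG mice. Those named next were chosen after their values were seen. Their highest value had a median of 153 CPM, and 7 stayed under 100 CPM. GFP_Barcode_1483, at 2301 CPM in Ptprca mouse 3 bone marrow and 413 CPM in its spleen, was the only one above its baseline level, 1778 CPM. GFP_Barcode_45571 held 928 and 166 CPM in bone marrow and spleen of Ptprca mouse 2, from 1609 CPM at baseline. In NSG mouse 5, GFP_Barcode_33915 had 43.2 CPM in bone marrow and 479 CPM in spleen, while GFP_Barcode_29500 had 73.4 CPM in bone marrow and 0 in spleen. In NSG mouse 6, GFP_Barcode_11144 had 814 CPM in bone marrow and 0 in spleen, from 1209 CPM at baseline. Both organs held 10 CPM or more for 5 of the 14, bone marrow alone for 5 and spleen alone for 4.

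Whether loss differed between hosts was asked of all 184 abundant barcodes, which the baseline library alone had chosen. Under 10 CPM in both organs were 113, 113 and 118 barcodes in Ptprca mice 1, 2 and 3, and 101, 98 and 98 in NSG mice 4, 5 and 6. Every NSG mouse thus had fewer missing clones than every Ptprca mouse. The 77 lost barcodes are in each of these counts, so the whole difference comes from kept barcodes, of which 36, 36 and 41 were missing in the Ptprca and 24, 21 and 21 in the NSG mice. The means were 115 ± 2.89 and 99 ± 1.73 (SD, n = 3 each), a difference of -15.7. The exact two-sided permutation p was 0.1, the least that groups of 3 can give (adjusted p = 0.229 over 10 tests), so this design cannot reach 0.05.

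The hosts were separate in bone marrow and overlapped in spleen. In bone marrow, 116, 120 and 124 abundant barcodes were under 10 CPM in Ptprca mice 1, 2 and 3 and 104, 100 and 104 in NSG mice 4, 5 and 6, with no overlap (difference -17.3, exact permutation p = 0.1, adjusted p = 0.229). In spleen the counts were 120, 116 and 119 in Ptprca and 127, 120 and 116 in NSG mice, which overlap (difference 2.67, exact permutation p = 0.7, adjusted p = 1). The spleen difference turned to -6.67 with a limit of 100 CPM and to -0.33 without NSG mouse 4.

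In NSG mice 4, 5 and 6 the spleen lacked 23, 20 and 12 more abundant barcodes than the bone marrow. In Ptprca mice 1, 2 and 3 the difference was 4, -4 and -5. The strains differed by 20 barcodes in this organ difference (exact permutation p = 0.1 and adjusted p = 0.229, again the least possible for the unadjusted p). Over all 6 mice the spleen lacked 8.33 more (exact permutation p = 0.115 for 6 against 6 libraries, adjusted p = 0.229). That test ignores that both organs come from the same mice. An exact sign-flip permutation within mice gave p = 0.219 (adjusted p = 0.438). The repeats of the NSG spleens differed most. Of abundant barcodes between 10 and 1000 CPM there, 85.4%, 70.0% and 82.2% were seen in both repeats in mice 4, 5 and 6, against 93.9% or more in each of the other 9 libraries. The part of this in the organ difference was not tested.

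The abundant clones as a whole held 70.5% of baseline, the library they were chosen in, and a lower share elsewhere follows in part from that choice. In Ptprca mice 1, 2 and 3 they held 42.4%, 44.1% and 39.7% of bone marrow and 40.8%, 27.9% and 18.1% of spleen. In NSG mice 4, 5 and 6 they held 29.2%, 47.3% and 47.5% of bone marrow and 14.0%, 48.6% and 11.8% of spleen. No test against baseline was made, which has no replicate. The lost barcodes made up at most 6.80 CPM of any of these libraries, so nearly all of the remaining share was that of kept barcodes. In each library 7 to 26 of the 184 were at or above their own baseline level and 35 to 64 lay between 10 CPM and that level. Spleen and bone marrow differed by -14.8 percentage points (exact permutation p = 0.0584 for 6 against 6 libraries, adjusted p = 0.229). With the organs paired by mouse, the exact sign-flip permutation p was 0.0625 (adjusted p = 0.25). The strains overlapped in both organs, with differences of -0.73 points in bone marrow (exact permutation p = 1) and -4.12 points in spleen (exact permutation p = 0.8).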

How the data were processed

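DNA barcodes were measured in 13 libraries, 1 baseline and 12 at disease. Per the labels' protocols, each lysate was divided into technical replicates before 2 rounds of PCR. The submitters' processing notes name Bowtie 1.2.2 and R 3.6, with no settings. The values deposited by the authors are CPM, and each column sums to 1000000.

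Whole-number depths of 2 repeats were found for every library such that all 6206 values above 0 were the mean CPM of whole reads at the printed 10 digits. Of these, 5964 had 1 solution and 242 several. On simulated libraries, every value with 1 solution was recovered correctly. No count model was fitted, since reads are averaged over repeats.

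Groups were taken from sample titles. Counts and shares per mouse or library were compared by exact two-sided permutation, with Benjamini-Hochberg adjustment over 10 tests and a threshold of 0.05. The libraries of 1 mouse come from the same animal by their titles. Their deviations from group means, on log2(CPM + 1) over 107 kept barcodes, had correlations between 0.717 and 0.788 for Ptprca mice and between 0.0638 and 0.173 for NSG mice. Nothing states whether cells of different mice were prepared separately, so p-values measure the spread between these mice. Computations ran in Python 3.11.15 with scipy 1.17.1, pandas 2.3.3 and numpy 2.4.6.

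Named barcodes were the 10 lost with the highest baseline level and the 5 lost with the highest disease value (ties kept). The 3 lost with the lowest baseline level were named too. Of the kept, the 5 with the highest baseline level, lowest peak or highest disease mean were named. Below the baseline limit, they were the 3 nearest that stayed under 10 CPM in every leukaemia library. Members, limits and this rule were chosen with earlier results of these data known. Alternatives were other baseline and disease limits, rescaling, 1 organ, the mouse as a block and each mouse left out.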

Additional observations from a re-analysis of the deposited data

How the results depend on the processing

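The 77 lost barcodes depended on the baseline limit and little on the disease limit. With a baseline limit of 500 CPM, 161 of 352 barcodes were lost, and with 2000 CPM, 22 of 86 (25.6%). With disease limits of 1 and 100 CPM the number was 74 and 87, at the floor of 3 reads 76, and 77 after rescaling without GFP_Barcode_52804, the largest barcode of NSG libraries. It was 82 from bone marrow alone, 85 from spleen alone, 79 without the 3 NSG spleens, 78 without NSG mouse 6 spleen (an alternative chosen after seeing the data) and 78 to 82 with each mouse left out (42.4% to 44.6% of 184).

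Of the 10 exact permutation tests, 0 had an adjusted or unadjusted p under 0.05. Those of 3 against 3 cannot give an exact permutation p under 0.1, so the tally decides nothing for them. Of 107 exact permutation tests under alternatives, 3 had an unadjusted p under 0.05 and 0 an adjusted one (lowest adjusted p = 0.108). All 3 compared spleen with bone marrow. With the mouse as a replicate block, the organ difference in missing abundant barcodes kept its value of 8.33, with an exact sign-flip permutation p of 0.219 (adjusted p = 0.438). That in their library share stayed at -14.8 points, with p = 0.0625 by exact permutation (adjusted p = 0.25), and the block changed no call. With each mouse left out, the host difference in missing barcodes ran from -16.7 to -14 per mouse, from -19.3 to -15.3 in bone marrow and from -0.33 to 5.17 in spleen, where a limit of 100 CPM gave -6.67.

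The host difference in library share had no stable sign. Per mouse, in bone marrow, in spleen and as the interaction with organ, it was 23.7, 13.9, 33.5 and 19.7 points with a baseline limit of 500 CPM, which adds GFP_Barcode_52804 to the set. With 2000 CPM the 4 values were 1.54, -1.48, 4.55 and 6.03. After rescaling without GFP_Barcode_52804 the 4 values were 12.8, 9.21, 16.3 and 7.13. With each mouse left out they ran from -9.87 to 3.31, from -3.80 to 5.33, from -16.0 to 2.38 and from -12.3 to 6.18. A value of 0 does not show absence, since a clone below the floors of 0.575 to 8.80 CPM can leave no read.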

Other observations

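Lost barcodes were also common among clones of middle size at baseline. From 200 to 500 CPM, 186 of 317 barcodes were under 10 CPM in every leukaemia library (58.7%, 95% Wilson interval 53.2% to 64.0%), and from 100 to 200 CPM, 180 of 260 (69.2%, 63.4% to 74.5%). From 10 to 100 CPM, 692 of 832 were (83.2%, 80.5% to 85.6%). Barcodes reached in all 6 mice made up 0.962% of the 10 to 100 CPM band and 5% of the 100 to 200 CPM band. They made up 8.52% from 200 to 500 CPM, 15.5% from 500 to 1000 CPM and 15.3% from 1000 to 2000 CPM. From 2000 to 5000 CPM the share was 37.9%. It was 42.9% both from 5000 to 10000 CPM and at 10000 CPM or more, so it did not rise in every step.

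NSG mouse 6 spleen also held traces of more lost barcodes below the baseline limit than any other library. Of barcodes from 100 to 1000 CPM at baseline and under 10 CPM in every leukaemia library, 28 had a read there, against 0 to 7 in each of the other libraries. The source of these reads was not tested.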
